A study of Mus musculus with 15 samples.

Results

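Complex I (NADH:ubiquinone oxidoreductase) is the entry point of the mitochondrial respiratory chain. It takes electrons from NADH on a peripheral arm in the matrix, passes them along iron-sulfur clusters to ubiquinone, and pumps protons through a membrane arm. Its catalytic core is shared with bacteria, the central pumps are encoded in the mitochondrial genome, and the remaining accessory subunits are nuclear genes whose loss or imbalance impairs assembly of the enzyme. Heart muscle, which relies on oxidative phosphorylation, holds a large amount of it. The genes described here are the nuclear-encoded members, taken by name as every protein-coding gene called Ndufa, Ndufb, Ndufc, Ndufs or Ndufv followed by a digit, with at least 10 normalized counts in at least 3 hearts. Assembly factors (Ndufaf genes) and Ndufab1 were not taken by this rule. Of the 36727 gene IDs in the deposited table, 16690 reached this minimum level, and all 39 IDs that matched the name were among them. The 2 IDs of Ndufs3 held identical values in every heart and were counted as 1 gene, which left 38 genes. Of these, 36 encode complex I subunits. Ndufa4 is now placed in complex IV, and its paralog Ndufa4l2 is a hypoxia-inducible gene. Ndufb1 stands in the table under the symbol Ndufb1-ps, with a protein-coding label.

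RNA was sequenced from whole hearts of male littermates operated on at 4 to 8 months of age and collected 4 weeks later. The 4 SIRT5OE TAC hearts came from mice that overexpress the mitochondrial deacylase SIRT5 and had transverse aortic constriction (TAC), which narrows the aorta and raises the pressure against which the left ventricle works. The 4 WT TAC hearts had the same constriction without the transgene. The 3 SIRT5OE sham and 4 WT sham hearts came from mice of each genotype that were operated on without banding. In the SIRT5OE line a Sirt5 cassette behind the ubiquitous CAGGS promoter sits near Col1a1, and its STOP signal was removed with Sox2-Cre. Overexpression was therefore body-wide and not limited to cardiomyocytes. The line goes back to 1 ES cell clone. Sirt5 averaged 35645 ± 5935 normalized counts in SIRT5OE TAC hearts and 1893 ± 239 in WT TAC hearts (SD, n = 4 each). It averaged 40866 ± 1972 in SIRT5OE sham hearts (n = 3) and 2169 ± 154 in WT sham hearts (n = 4).

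The values are the authors' normalized counts, which are read estimates scaled between libraries by DESeq2 size factors. Totals per heart lay between 63960360 and 70497065 for SIRT5OE TAC, between 56233957 and 61577670 for WT TAC, between 68778342 and 73194025 for SIRT5OE sham, and between 70144548 and 74282028 for WT sham. Fold changes are on the log2(normalized count + 1) scale from limma, in 1 fit of the 4 groups, and a gene was called at an adjusted p (Benjamini-Hochberg over all 16690 kept genes) under 0.05. The 14 cardiomyocyte markers were abundant in every heart and summed to at least 2624115 normalized counts in each. Of 3 fat genes looked at, Ucp1 stood at 0 to 4.09, Adipoq at 0 to 6.69 and Cidea at 1003 to 2052 normalized counts, and Cidea was higher in WT TAC than in WT sham (log2 fold change 0.56 ± 0.16, adjusted p = 0.0154 from limma). A whole heart mixes cell types, so fewer cardiomyocytes and less RNA per cardiomyocyte cannot be told apart in any result that follows.

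Promoter sequences were available from RefSeq for 33 of the 38 genes, with 250 bases before and 50 bases after the annotated start (GRCm38.p6). Both strands were searched for 4 short runs that match factors known to act on respiratory genes. The NRF1 run GCGCANGCG was present in 8 of 33 (24.2%), against 8.83% of 17492 protein-coding promoters. The YY1 run AAGATGGC was present in 7 of 33 (21.2%), against 3.22%. The ETS run CCGGAAG stood at 12.1%, against 11.9%, and the estrogen-related receptor run AAGGTCA at 9.09%, against 4.08%. All 7 YY1 matches read on the strand of the gene and began 22 to 38 bases after the start base. In that 50-base stretch 21.2% of the members and 1.37% of all promoters held the run. In each of the 7 genes the ATG inside the run is an annotated start codon, so these letters also spell the beginning of the protein. The windows below are shown because they place this shared run at the start codon of 7 genes, with the 8 letters in capitals.
Ndufa3, chr7:3617384-3617413, plus strand: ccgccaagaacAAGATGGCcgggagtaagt
Ndufa9, chr6:126849097-126849126, minus strand: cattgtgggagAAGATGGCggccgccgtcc
Ndufb8, chr19:44555393-44555422, minus strand: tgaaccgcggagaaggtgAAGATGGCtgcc
Ndufc1, chr3:51408915-51408944, minus strand: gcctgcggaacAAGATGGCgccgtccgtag
Ndufs4, chr13:114388045-114388074, minus strand: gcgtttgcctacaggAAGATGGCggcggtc
Ndufs6, chr13:73328433-73328462, minus strand: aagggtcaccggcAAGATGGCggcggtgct
Ndufs7, chr10:80249462-80249491, plus strand: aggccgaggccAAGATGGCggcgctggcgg

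Ndufb4, which encodes a subunit of the distal membrane arm, was the member with most NRF1 matches. GENCODE starts this minus-strand gene further upstream than RefSeq, at 37654453, so the matches at 79 and 22 bases lie within the GENCODE gene. Its 3 matches on the gene's strand began 191, 79 and 22 bases before the RefSeq start and are shown in that order, with the 9 letters in capitals.
Ndufb4, chr16:37654540-37654569, minus strand: gagaagcagtGCGCACGCGcagaatacgcg
Ndufb4, chr16:37654428-37654457, minus strand: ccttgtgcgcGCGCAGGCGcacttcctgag
Ndufb4, chr16:37654371-37654400, minus strand: cctcatatccGCGCAGGCGcagatgtgcgc
A match is a run of letters and not a measured binding site. Of the 14 members with none of the 4 runs, 12 were lower in WT TAC than in WT sham, with a median log2 fold change of -0.55. The 7 members with the YY1 run were all lower, with a median of -0.59, and 7 of the 8 with the NRF1 run were lower, with a median of -0.49. Over all 38 members the share called lower was 86.8%, against 16.5% of all genes. The counts by run lay near the share of the whole set, and no test of a difference by run was made.

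The first comparison asked how pressure overload alone changed the complex I genes. TAC lowered nearly the whole set in WT hearts: 33 of 38 genes (86.8%) were lower in WT TAC than in WT sham at an adjusted p under 0.05 from limma, where 16.5% of all genes were called lower. The median log2 fold change of the 38 genes was -0.54, or 0.686 times the WT sham level, against a median of -0.01 over all genes. In 31 of 38 genes (81.6%) every WT TAC heart lay below every WT sham heart, which held for 15.5% of all genes. The change was broad but moderate. With a log2 fold change under -1 asked as well as the adjusted p, 0 members were called lower, against 4.95% of all genes. Only Ndufa4l2 was higher, where 17.3% of all genes were called higher. Of the 36 complex I subunits, without Ndufa4 and Ndufa4l2, 32 were called lower.

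**Figure D1:**
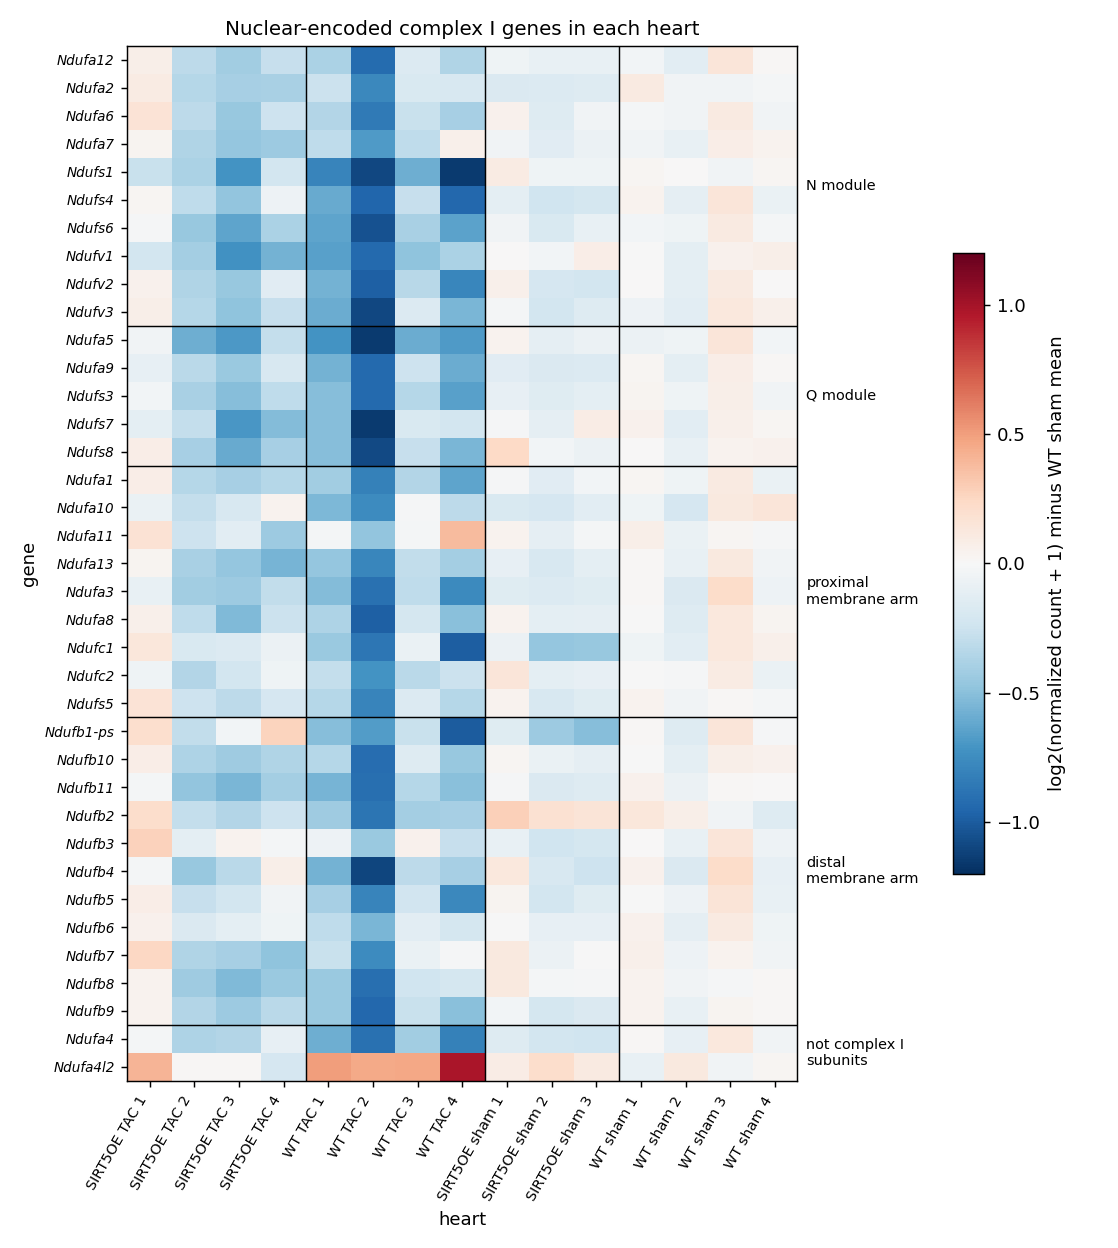
Each row is 1 of 37 genes, grouped by its place in complex I, and each column is 1 of the 15 hearts; colour gives log2(normalized count + 1) minus the mean of the WT sham hearts. The WT TAC columns are blue in nearly every row, WT TAC 2 is the lowest heart in 33 of the 37 rows, the SIRT5OE TAC 1 column is close to the sham columns, and the Ndufa4l2 row runs the other way.

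The 7 nuclear core subunits, which carry the redox chemistry, were all lower in WT TAC hearts, with a median log2 fold change of -0.61. Ndufs1 (chromosome 1, 63143596 to 63176833 in GRCm38), the largest core subunit and the carrier of several iron-sulfur clusters, had 32933, 26768, 38032 and 25700 normalized counts in WT TAC hearts, against 57902, 57240, 55258 and 57848 in WT sham hearts. The highest WT TAC heart lay far below the lowest WT sham heart, and the WT sham hearts were within a narrow band. This was the lowest log2 fold change of the set, at -0.90 ± 0.13 (SE, adjusted p = 0.000129 from limma).

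Ndufv1 (chromosome 19, 4007384 to 4012806), which holds the flavin and the NADH site, had 24873, 20459, 28040 and 30005 normalized counts in WT TAC hearts, against 39000, 36117, 40622 and 40973 in WT sham hearts. Its log2 fold change was -0.61 ± 0.12 (adjusted p = 0.00135 from limma). Ndufv2 (chromosome 17, 66078638 to 66101559), its partner with a further iron-sulfur cluster, had 18944, 14246, 22358 and 16275 in WT TAC and 28258, 25893, 30199 and 28150 in WT sham hearts. For both genes of this electron input pair all WT TAC hearts lay below all WT sham hearts, and Ndufv2 had a log2 fold change of -0.67 ± 0.14 (adjusted p = 0.00158 from limma).

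Further core subunits moved by similar amounts. Ndufs3, a structural core subunit, averaged 7180 ± 1202 in WT TAC and 10845 ± 435 in WT sham hearts (SD, n = 4 each), with a log2 fold change of -0.61 ± 0.12 (adjusted p = 0.000954 from limma). Ndufs8, a carrier of iron-sulfur clusters, averaged 6533 ± 1434 in WT TAC and 9742 ± 425 in WT sham hearts, with -0.60 ± 0.16 (adjusted p = 0.00753 from limma). Ndufs7, which holds the last cluster before ubiquinone, averaged 11060 ± 3030 in WT TAC and 15346 ± 880 in WT sham hearts, with -0.52 ± 0.17 (adjusted p = 0.0289 from limma). The Ndufs7 call was the weakest of the core: its adjusted p reached 0.0772 among 28 alternatives and passed 0.05 without WT TAC 1 or 2, without WT sham 1, 3 or 4, in a fit of those 2 groups alone and without limma's mean-variance trend.

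By place in the enzyme, 9 of 10 N module genes (the NADH-binding tip of the peripheral arm) and 6 of 6 Q module genes (the ubiquinone-binding part) were lower in WT TAC, with median log2 fold changes of -0.61 and -0.59. In the membrane arm, 8 of 9 proximal and 9 of 11 distal genes were lower, with medians of -0.49 and -0.53. The modules therefore moved by like amounts, and no test of a difference between them was made. Among accessory subunits, Ndufa5 (chromosome 6, 24518666 to 24528013), which sits on the Q module, was lowest, with 11912, 8811, 12920 and 12240 normalized counts in WT TAC hearts, against 18647, 18926, 21658 and 19190 in WT sham hearts. Its groups were wide apart and its log2 fold change was -0.79 ± 0.14 (adjusted p = 0.000523 from limma).

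Ndufa7, Ndufa11, Ndufb3 and Ndufb7 did not pass the test, and are named here after their values were seen. Ndufa11 (chromosome 17, 56717767 to 56722141), a membrane subunit next to the peripheral arm, had 11165, 8201, 11189 and 14796 normalized counts in WT TAC hearts, against 11937, 10742, 11551 and 11282 in WT sham hearts. WT TAC 4 was the highest heart of the whole series for this gene and WT TAC 2 the lowest, and the log2 fold change was -0.04 ± 0.15 (adjusted p = 0.881 from limma). It turned to 0.11 without WT TAC 2 and to 0.02 with mitochondrially encoded genes removed before scaling. The accessory subunits Ndufa7 and Ndufb7 had log2 fold changes of -0.31 ± 0.13 and -0.28 ± 0.16 (adjusted p = 0.0859 and 0.19 from limma). Ndufa7 was called lower in 5 of 28 alternatives (without WT TAC 4, without both WT TAC 4 and SIRT5OE TAC 4, and with array weights, quantile normalization or a GC correction), with an adjusted p down to 0.00832, and Ndufb7 with the GC correction (adjusted p = 0.0316 from limma). Ndufb3, a distal arm subunit, had -0.18 ± 0.11 (adjusted p = 0.216 from limma).

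Ndufa4 and Ndufa4l2 moved in opposite directions. Ndufa4 (chromosome 6, 11900292 to 11907497) had 31913, 25829, 35880 and 27339 normalized counts in WT TAC hearts, against 48407, 44922, 52443 and 46483 in WT sham hearts. The groups did not overlap, and the log2 fold change was -0.68 ± 0.11 (adjusted p = 0.000373 from limma). Ndufa4l2 (chromosome 10, 127514967 to 127517154) had 1146, 1110, 1117 and 1597 in WT TAC hearts, against 761, 877, 787 and 823 in WT sham hearts. All WT TAC hearts were above all WT sham hearts, and 1 of them, WT TAC 4, stood well above the other three. The log2 fold change was 0.60 ± 0.14 (adjusted p = 0.00337 from limma). Expressed as a ratio of counts without correction for length, Ndufa4l2 came to 3.59%, 4.30%, 3.11% and 5.84% of Ndufa4 in WT TAC hearts, against 1.57%, 1.95%, 1.5% and 1.77% in WT sham hearts. The transcripts of the 2 genes shared 0.268% of the 31-base runs of Ndufa4l2, so reads could be told apart by sequence.

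Cell type markers moved in the same comparison. Of the 14 cardiomyocyte markers, 8 were lower and 0 higher in WT TAC, with a median log2 fold change of -0.49, close to that of the complex I genes. Their summed level was 2624115 to 4542148 in WT TAC and 5287288 to 5951178 in WT sham hearts. All 7 fibroblast markers and all 6 macrophage and leukocyte markers were higher, with medians of 0.92 and 0.82. Of 6 mural markers, 3 were higher and 0 lower (median 0.15, range -0.59 to 1.42). The part of these shifts in the lower complex I levels was not tested.

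The second comparison asked for the same effect in SIRT5OE mice. Here 1 of 38 genes (2.63%) was lower in SIRT5OE TAC than in SIRT5OE sham and 0 were higher, where limma called 1.86% of all genes lower. At an unadjusted p under 0.05, 7 members were lower (18.4%, against 10.2% of all genes) and 1 was higher. The median log2 fold change was -0.16, or 0.896 times the SIRT5OE sham level, and 34 of 38 values were below 0. Without SIRT5OE TAC 1 the median was -0.25. In 4 genes (10.5%), Ndufs1 and Ndufv1 among them, all SIRT5OE TAC hearts lay below all SIRT5OE sham hearts. As this held for 11.8% of all genes, the count is near the background. Of the markers, 0 of 14 for cardiomyocytes were called, with a median of -0.25, and 5 of 7 for fibroblasts were higher. At an unadjusted p under 0.05 from limma, 5 of the 14 cardiomyocyte markers passed in either direction.

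**Figure D2:**
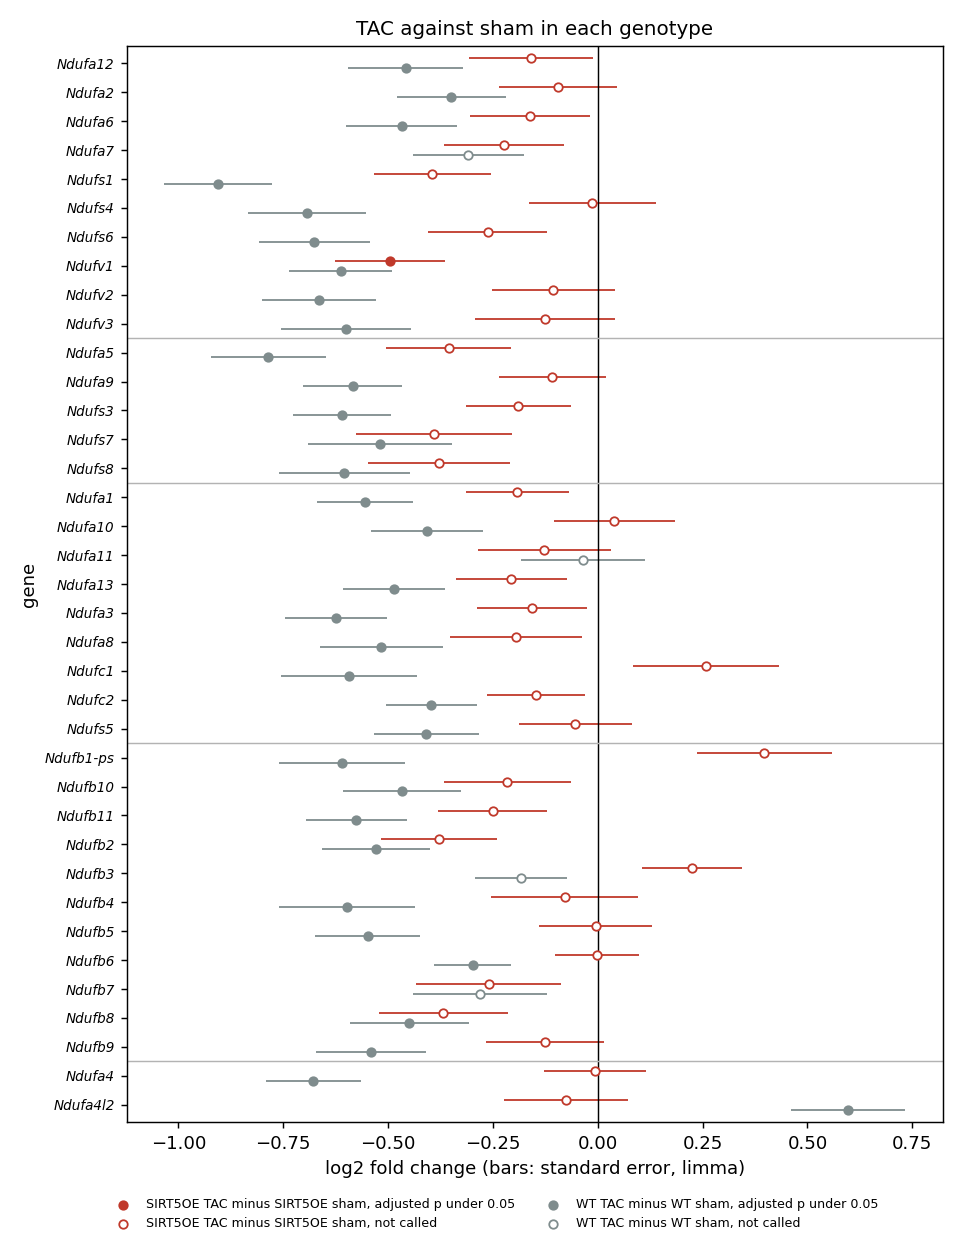
For each of 37 genes the log2 fold change (± SE from limma) is drawn for SIRT5OE TAC minus SIRT5OE sham (red) above WT TAC minus WT sham (grey), with filled points for calls at an adjusted p under 0.05. The grey points are filled in 33 genes, of which 32 lie left of 0, and the red points are filled only at Ndufv1.

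The called gene was Ndufv1, with 33572, 29452, 23595 and 26464 normalized counts in SIRT5OE TAC hearts, against 39132, 38180 and 41302 in SIRT5OE sham hearts. Its groups were apart, and the log2 fold change was -0.50 ± 0.13 (adjusted p = 0.042 from limma). The call ended in 16 of 28 alternatives. Among them were the fits without any 1 of the SIRT5OE sham or WT sham hearts, without SIRT5OE TAC 2, 3 or 4 and without WT TAC 1, and its adjusted p reached 0.173.

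Ndufs1 had 47468, 43925, 34744 and 49014 normalized counts in SIRT5OE TAC hearts, against 61150, 55173 and 55033 in SIRT5OE sham hearts. It did not pass the test although the groups were apart (log2 fold change -0.39 ± 0.14, adjusted p = 0.107 from limma), and was called with array weights (adjusted p = 0.0253). Ndufb2, a distal arm subunit, had 9245, 6589, 6268 and 6748 in SIRT5OE TAC and 9794, 9096 and 8924 in SIRT5OE sham hearts. SIRT5OE TAC 1 reached the sham range while the other three did not, and the log2 fold change was -0.38 ± 0.14 (adjusted p = 0.121 from limma). It was called with array weights and without SIRT5OE TAC 1. On the positive side stood Ndufb1-ps, with 14037, 9918, 11904 and 14688 in SIRT5OE TAC and 11052, 9002 and 8576 in SIRT5OE sham hearts (log2 fold change 0.40 ± 0.16, adjusted p = 0.161 from limma, and 0.0465 with array weights). Ndufc1, a small subunit of the proximal membrane arm, had 0.26 ± 0.17 (adjusted p = 0.416 from limma). Ndufa4 and Ndufa4l2 had log2 fold changes of -0.01 ± 0.12 and -0.08 ± 0.15 (adjusted p = 0.981 and 0.81 from limma). Both changed sign when single hearts were left out.

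The response differed between hearts of the group. Set against the WT sham mean, the median member stood at 0.05, -0.34, -0.43 and -0.28 on the log2 scale in SIRT5OE TAC hearts 1 to 4, and at -0.46, -0.90, -0.27 and -0.46 in WT TAC hearts 1 to 4. SIRT5OE TAC 1 had 3 of 38 members below every sham heart, while the other SIRT5OE TAC hearts had 27 to 34 and the WT TAC hearts 30 to 37. The 14 cardiomyocyte markers had medians of -0.10, -0.26, -0.43 and -0.21 in SIRT5OE TAC hearts and -0.51, -0.82, -0.18 and -0.67 in WT TAC hearts. WT TAC 3 thus lay at the level of the SIRT5OE TAC hearts, and WT TAC 2 was the lowest heart for 34 of the 38 genes. Without SIRT5OE TAC 1 limma called 2 members lower in SIRT5OE TAC than in SIRT5OE sham, in place of 1.

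The third comparison set the TAC hearts of both genotypes against each other. Of the 38 log2 fold changes of SIRT5OE TAC against WT TAC, 36 were above 0, with a median of 0.27 or 1.2 times the WT TAC level, against 0.00 over all genes. The members vary together within groups, so their signs are not independent, and the median was 0.14 without WT TAC 2 and 0.18 without SIRT5OE TAC 1. Limma called 5 genes higher (13.2%, against 3.8% of all genes) and 1 lower (2.63%, against 3.43%). Ndufa4 was 1 of the 5 and Ndufa4l2 was the lower gene. Of the 36 complex I subunits alone, 4 were called higher. At an unadjusted p under 0.05, 17 of the 38 genes were higher (44.7%, against 14.3% of all genes). Ndufa4 and Ndufb2 were the genes with all SIRT5OE TAC hearts above all WT TAC hearts (5.26%, against 4.06% of all genes).

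Ndufb1-ps (chromosome 12, 101968090 to 101977068), a distal arm subunit that GENCODE lists as a non-coding RNA and that shares some 31-base runs with Cpsf2, had 14037, 9918, 11904 and 14688 normalized counts in SIRT5OE TAC hearts, against 8565, 7688, 10164 and 6123 in WT TAC hearts. The groups met at SIRT5OE TAC 2 and WT TAC 3, and the log2 fold change was 0.64 ± 0.15 (adjusted p = 0.0331 from limma). Ndufs1 had 47468, 43925, 34744 and 49014 in SIRT5OE TAC hearts, against 32933, 26768, 38032 and 25700 in WT TAC hearts. Here too 1 heart of each group crossed over, and the log2 fold change was 0.51 ± 0.13 (adjusted p = 0.0348 from limma). It was the only core subunit called, of 7 with a median of 0.27.

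Ndufa4 had 47268, 37080, 37527 and 44873 normalized counts in SIRT5OE TAC hearts, against 31913, 25829, 35880 and 27339 in WT TAC hearts. The groups were apart by a small margin, with a log2 fold change of 0.47 ± 0.11 (adjusted p = 0.0342 from limma). Ndufs4, an N module subunit whose loss gives mice a fatal mitochondrial encephalopathy, and Ndufb5, a distal arm subunit, completed the 5 and are named after their values were seen. Ndufs4 averaged 10760 ± 1672 in SIRT5OE TAC and 7734 ± 1797 in WT TAC hearts (log2 fold change 0.49 ± 0.14, adjusted p = 0.0473 from limma). Ndufb5 averaged 18029 ± 2036 in SIRT5OE TAC and 13492 ± 2639 in WT TAC hearts (0.43 ± 0.13, adjusted p = 0.0489 from limma). Both calls ended in 21 of 28 alternatives. Those of Ndufb1-ps, Ndufs1 and Ndufa4 ended in 10, 12 and 11 of 28, with an adjusted p up to 0.275, 0.299 and 0.279 from limma.

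Ndufa4l2 ran the other way, with 1076, 820, 818 and 703 normalized counts in SIRT5OE TAC hearts, against 1146, 1110, 1117 and 1597 in WT TAC hearts. The highest SIRT5OE TAC heart was just under the lowest WT TAC heart, and the log2 fold change was -0.54 ± 0.14 (adjusted p = 0.0351 from limma). As a ratio of counts, Ndufa4l2 came to 2.28%, 2.21%, 2.18% and 1.57% of Ndufa4 in SIRT5OE TAC hearts, against 3.59%, 4.30%, 3.11% and 5.84% in WT TAC hearts. Ndufc1 missed the threshold (0.52 ± 0.16, adjusted p = 0.0568 from limma) and passed it without SIRT5OE TAC 3 or WT TAC 3. Ndufa11 was the other gene below 0 (-0.12 ± 0.15, adjusted p = 0.608 from limma), and it turned positive without WT TAC 4.

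**Figure D3:**
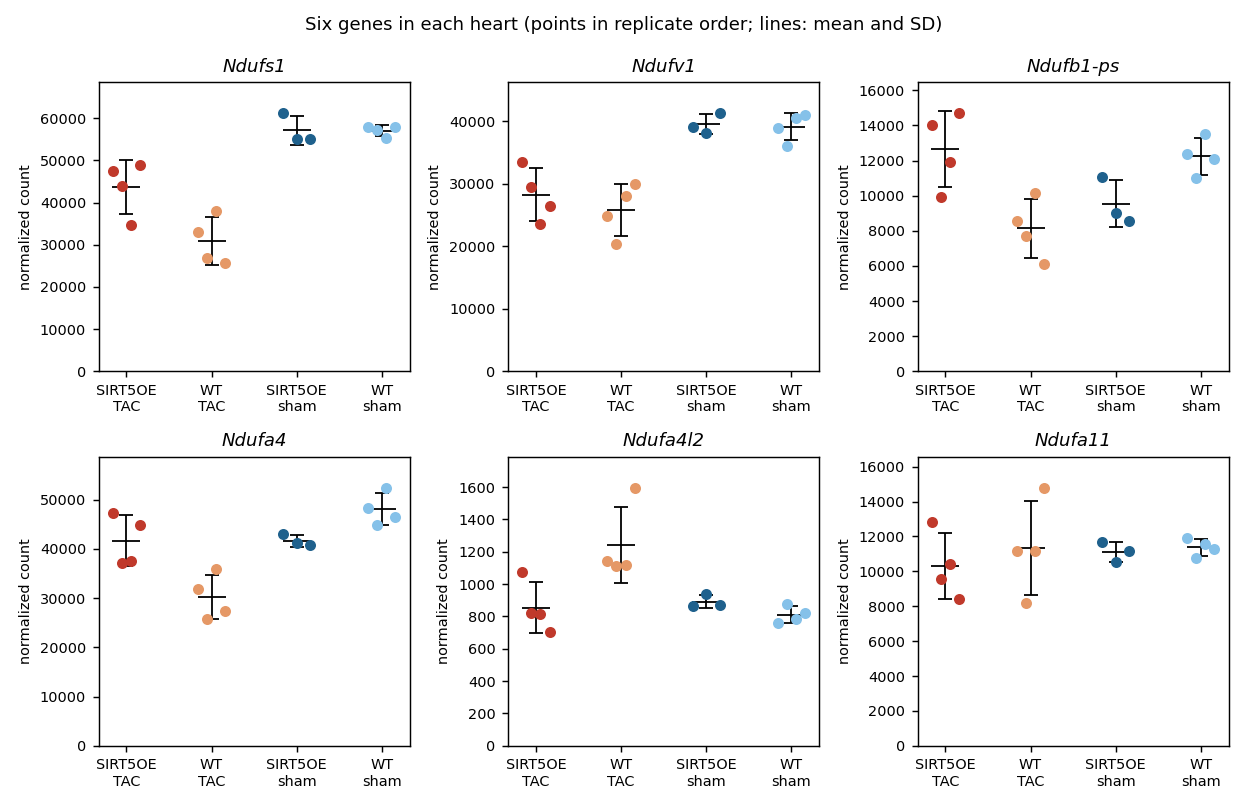
Normalized counts of 6 genes, with 1 point for each heart in replicate order and lines for the mean and SD of each group (n = 4, 4, 3 and 4). Ndufs1 and Ndufa4 are lowest in WT TAC, Ndufv1 is low in both TAC groups, Ndufa4l2 is highest in WT TAC with WT TAC 4 at 1597, and Ndufa11 overlaps in all groups.

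These calls depended on single hearts. The 5 genes called higher became 0 without SIRT5OE TAC 1, 2 or 4 or WT TAC 2 or 4, 11 without SIRT5OE TAC 3, 17 without WT TAC 3, 2 without SIRT5OE sham 2 and 3 without any other sham heart. The lower level of Ndufa4l2 lost its call in 11 of 28 alternatives. These were the fits without SIRT5OE TAC 2 or 4, WT TAC 2 or 4 or SIRT5OE sham 2 (adjusted p up to 0.131), without both WT TAC 4 and SIRT5OE TAC 4 (log2 fold change -0.33, adjusted p = 0.294), with the GC correction (-0.34, adjusted p = 0.0619), with no filter, with the 2 groups alone, with the replicate block and without trend. The hearts WT TAC 4 and SIRT5OE TAC 4 leaned in opposite ways with the GC content of transcripts. Spearman's rho of a gene's deviation from WT sham with its GC content was -0.24 in SIRT5OE TAC 4 and 0.33 in WT TAC 4 over 16411 genes, against -0.16 to 0.14 in the other hearts, where WT TAC 4 and SIRT5OE TAC 4 were the extremes. Over the 38 members, whose GC content ran from 42.0% to 60.4%, it was -0.53 in SIRT5OE TAC 4 and 0.41 in WT TAC 4, against -0.20 to 0.40 in the other hearts, so that WT TAC 4 did not stand apart from WT sham 4 on the members. After a correction for GC content limma called 1 member higher and 25 passed an unadjusted p under 0.05 in either direction. Without both hearts it called 0 and 13. The 14 cardiomyocyte markers had 0 calls here and a median of 0.35, and 7 of them passed an unadjusted p under 0.05 from limma. Of the 7 fibroblast markers, limma called 2 lower in this comparison (median -0.21, lowest -1.35). Of the 6 macrophage and leukocyte markers 0 were called (median -0.24). Of the 6 mural markers 1 was called lower (median -0.05, range -0.75 to 0.52). At an unadjusted p under 0.05 from limma, 5 mural markers passed in either direction. The part of these shifts in the complex I levels was not tested. The summed level of the 14 cardiomyocyte markers was 3887781 to 5309435 in SIRT5OE TAC and 2624115 to 4542148 in WT TAC hearts.

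The fourth comparison asked whether SIRT5 overexpression changed these genes without pressure overload. Limma called 0 of 38 genes between SIRT5OE sham and WT sham hearts, and 0.018% of all genes. At an unadjusted p under 0.05, 1 member was lower and 0 were higher (2.63%, against 2.56% of all genes), and the median log2 fold change was -0.09 (-0.06 without SIRT5OE sham 2 and -0.05 without WT sham 3). The member was Ndufb1-ps, with 11052, 9002 and 8576 normalized counts in SIRT5OE sham hearts, against 12347, 10992, 13526 and 12109 in WT sham hearts (-0.36 ± 0.16, adjusted p = 1 from limma). SIRT5OE sham 1 was within the WT sham range. At the other end Ndufb2 had 9794, 9096 and 8924 in SIRT5OE sham and 8790, 8402, 7778 and 7176 in WT sham hearts (0.21 ± 0.14, adjusted p = 1 from limma). In 6 genes (15.8%, against 3.67% of all genes) all SIRT5OE sham hearts were below all WT sham hearts, although by small amounts. Ndufa4 was among them, with 43034, 41231 and 40714 in SIRT5OE sham and 48407, 44922, 52443 and 46483 in WT sham hearts (-0.20 ± 0.12, adjusted p = 1 from limma). Ndufc1 had -0.33 ± 0.17 and Ndufa4l2 0.13 ± 0.15 (adjusted p = 1 each from limma).

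The interaction of genotype and TAC tests whether the TAC effect itself differed between SIRT5OE and WT mice. Limma called 0 of 38 members and 0.0% of all genes. At an unadjusted p under 0.05, 18 members had a positive interaction (47.4%, against 6.96% of all genes) and 1 a negative one, so the smaller TAC effect in SIRT5OE hearts was not shown for any single member after adjustment. The median over the members was 0.34, against 0.00 over all genes, and 0.22 without WT TAC 2. The lowest p-values belonged to Ndufb1-ps (1.01 ± 0.22), Ndufa4 (0.67 ± 0.17), Ndufc1 (0.85 ± 0.24) and Ndufa4l2 (-0.67 ± 0.20), each with an adjusted p of 0.349 from limma. Without WT TAC 3, limma called 2 members, Ndufb1-ps and Ndufc1.

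Within groups the members varied together. After the group means were taken out, the median Pearson correlation between pairs of the 37 genes other than Ndufa4l2 was 0.81 over 15 hearts, with a range of -0.12 to 0.99 over 666 pairs. The hearts share library depth and scaling across all genes, and WT TAC 2 enters every pair. A ranking of the genes was made only over the 15 hearts with the group differences left in. There Ndufa11, Ndufb1-ps and Ndufb3 had the lowest correlations with the mean of the other genes (0.41, 0.63 and 0.64).

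The other parts of the respiratory chain gave a setting for these values. The 7 mitochondrially encoded complex I genes were all lower in WT TAC than in WT sham, with a median log2 fold change of -0.95. Their range was -1.06 in mt-Nd2 to -0.86 in mt-Nd6, both membrane arm subunits. Between SIRT5OE TAC and WT TAC they had 2 calls, both higher, and a median of 0.67. Mitochondrially encoded transcripts made up 27.9% to 35.0% of all counts in SIRT5OE TAC hearts and 19.8% to 27.2% in WT TAC hearts. In the sham hearts the share was 33.8% to 34.6% for SIRT5OE and 34.7% to 36.2% for WT. With them removed before scaling, 32 nuclear members were lower in WT TAC than in WT sham and 3 were higher in SIRT5OE TAC than in WT TAC.

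Among 17 complex I assembly factors, 12 were lower in WT TAC than in WT sham, with a median of -0.37 and the lowest value at Ndufaf6 (-0.63 ± 0.17, adjusted p = 0.0106 from limma). Between SIRT5OE TAC and WT TAC, 2 of them were higher. Ndufab1, the acyl carrier protein that is also a complex I subunit and was outside the name rule, had -0.78 ± 0.16 (adjusted p = 0.00152 from limma) in WT TAC against WT sham, and 0.76 in SIRT5OE TAC against WT TAC, where it was called higher. In WT TAC against WT sham, 3 of 4 complex II genes, 7 of 10 complex III genes, 10 of 11 complex IV genes and 12 of 15 complex V genes were lower and 0 were higher. Their medians were -0.53, -0.57, -0.56 and -0.63. Sdha, the flavin subunit of complex II, and Cox7a1, the muscle isoform of a complex IV subunit, had the lowest values of their lists (-0.98 ± 0.13 and -1.42 ± 0.24, adjusted p = 0.000102 and 0.000424 from limma). The median of the nuclear complex I genes, -0.54, lay within the range of these medians. In SIRT5OE TAC against WT TAC, complexes II, III, IV and V had medians of 0.30, 0.32, 0.32 and 0.30, beside 0.27 for the 38 members. Limma called 1, 2, 1 and 1 of their genes higher there and 0 lower. The higher median in SIRT5OE TAC was thus not particular to complex I.

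**Figure D4:**
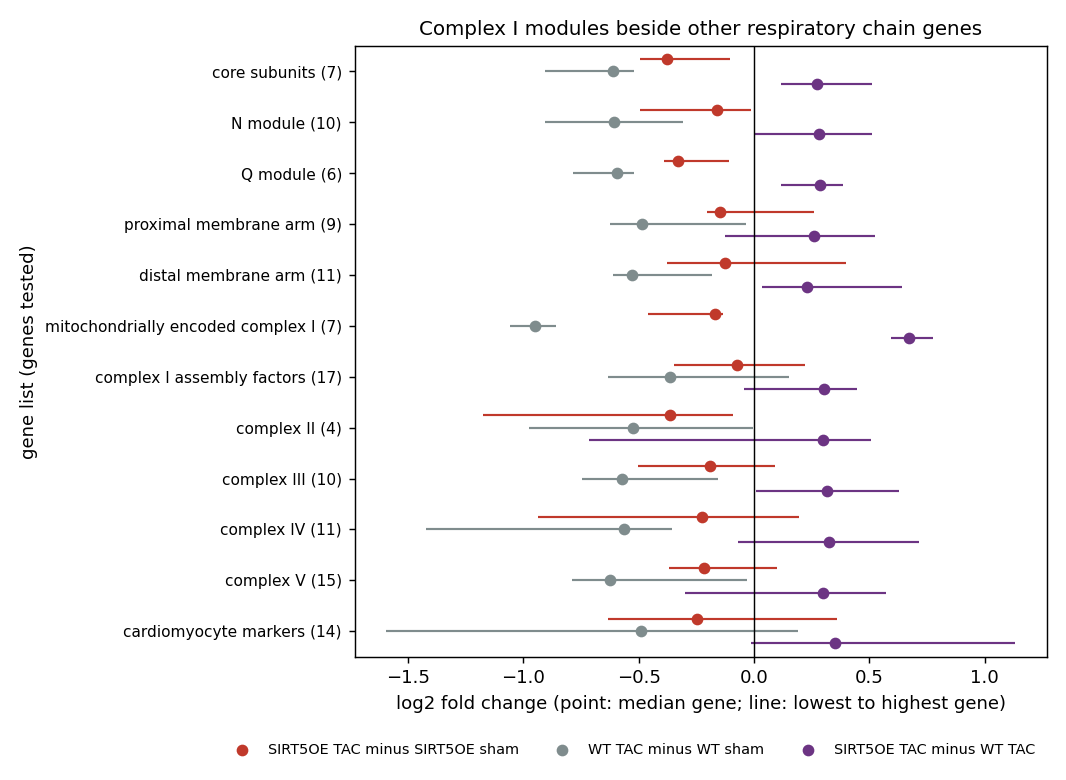
Median (point) and range (line) of the log2 fold changes of each gene list, for SIRT5OE TAC minus SIRT5OE sham (red), WT TAC minus WT sham (grey) and SIRT5OE TAC minus WT TAC (purple), with the genes tested in brackets. The 4 modules of complex I lie between -0.61 and -0.49 in WT TAC against WT sham, and the mitochondrially encoded subunits at -0.95.

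Of 11 regulators of respiratory genes, 5 were lower in WT TAC than in WT sham and 0 were higher. The lowest was Ppargc1a, a coactivator of mitochondrial gene expression, at -1.57 ± 0.36 (adjusted p = 0.00368 from limma). The highest was its relative Pprc1, at 0.31 ± 0.13 (adjusted p = 0.0808 from limma).

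Some members cannot be counted cleanly by sequence. At least 20% of the 31-base runs of Ndufb6, Ndufa13, Ndufb11, Ndufs5, Ndufs3 and Ndufa12 also occur in transcripts of other genes, with 34.5% in Ndufb6 at the top (shared with the neighbouring Smim27). Ndufb4 shares 19.1% with its processed pseudogene Ndufb4c, which carried more normalized counts than Ndufb4 in all 15 hearts. Ndufb4c had a log2 fold change of -0.65 ± 0.16 in WT TAC against WT sham (adjusted p = 0.00607 from limma), and Ndufb4 one of -0.60 ± 0.16 (adjusted p = 0.0099 from limma). How reads were split between the 2 was not tested.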

How the data were processed

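RNA from 15 whole mouse hearts (4 SIRT5OE TAC, 4 WT TAC, 3 SIRT5OE sham, 4 WT sham) was ribodepleted and sequenced, 1 library per heart. The deposited signal values are normalized counts: per the paper and the submitters' notes, the authors checked reads with FastQC, pseudoaligned them with kallisto (0.43.1 in the notes) to mouse cDNA, summed transcripts to genes with tximport and scaled them with DESeq2. Whole reads were not recovered (6.75% to 36.4% of low values were whole steps within 0.02), so no count model was used, no counting interval is given, and precision depends on how many hearts each group has.

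Genes with at least 10 normalized counts in at least 3 hearts were fitted as log2(normalized count + 1) with limma 3.58.1 (R 4.3.3; 4 group means, eBayes with trend, Benjamini-Hochberg over 16690 genes). A pseudocount of 1 slightly understates changes of low genes. The procedure was tested on simulated data. Where nothing says that hearts came from separate litters or days, p-values measure only the spread between these hearts. The paper lists its TAC mice by batch, and the sample labels give no batch for these hearts. The members, gene lists, motifs and tests were chosen with earlier results of these data known. Named members were the 7 core subunits, in each comparison the 4 of smallest adjusted p and the 2 highest and 2 lowest log2 fold changes, those opposite in sign to the median in WT TAC against WT sham, and Ndufa4 and Ndufa4l2; 1 member that enters the counts is not reported by name or drawn. Positions are from GENCODE vM21 (GRCm38), promoters from RefSeq (GRCm38.p6). Mural, endothelial, adipocyte and atrial marker lists were also summed; between WT TAC and WT sham 3 of 6 mural markers were higher, 1 of 6 endothelial markers was lower, 1 of 2 tested adipocyte markers was higher and 0 of 2 tested atrial markers were called by limma, with 0 at an unadjusted p under 0.05. The main fit did not pair hearts by replicate number. Figures were drawn with matplotlib in Python.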

Additional observations from a re-analysis of the deposited data

Results flagged for a closer look

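In 5 of 57 groups of 4 hearts looked at among the named members, 1 heart stood apart from the other three of its group, with a gap that took up more of the group's range than Dixon's critical value for 4 samples allows. In the SIRT5OE TAC group the heart was SIRT5OE TAC 1, higher than the others, for Ndufb7 (a gap of 0.864 of the range), Ndufb2 (0.839) and Ndufa7 (0.831). In the WT TAC group it was WT TAC 4, higher, for Ndufa4l2 (0.927) and WT TAC 2, lower, for Ndufb2 (0.94). Chance flags about 1 in 20 such groups where they are independent. These genes vary together and share the same hearts, so 5 of 57 cannot be set against that rate. The SIRT5OE TAC 1 heart had Ndufb7 at 12747 normalized counts, against 8364, 8126 and 7677 in the others of its group, and Ndufa7 at 6578, against 4984, 4660 and 4735.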

How the results depend on the processing

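The lower level in WT TAC against WT sham kept its count under nearly all settings: 29 to 34 of 38 genes in place of 33 under the other scalings, filters, pseudocounts and fits, and 26 to 34 when each heart was left out in turn. With an absolute log2 fold change over 1 asked as well, the counts for WT TAC against WT sham, SIRT5OE TAC against SIRT5OE sham and SIRT5OE TAC against WT TAC were all 0.

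For SIRT5OE TAC against SIRT5OE sham, 1 gene was lower. This became 0 with no filter, with the 2 compared groups alone, with the replicate block and without trend, 6 with array weights, and 0 to 2 when each heart was left out. For SIRT5OE TAC against WT TAC, 5 genes were higher. This became 0 with no filter, with the 2 compared groups alone, with the replicate block and without trend, 3 with upper-quartile scaling and with mitochondrially encoded genes removed, and 0 to 17 when each heart was left out. In 2 alternatives chosen after seeing the data, the GC correction gave 1, and leaving out WT TAC 4 and SIRT5OE TAC 4 gave 0, and also 0 genes lower in SIRT5OE TAC than in SIRT5OE sham. The interaction had 0 to 2 members when each heart was left out, and SIRT5OE sham against WT sham had 0 under every setting run. The cause of these changes was not tested.

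Among the genes followed in the comparisons that name them, signs turned in 3, none of them called there. Other members were not followed. Ndufa11 had 0.0565 in SIRT5OE TAC against WT TAC with the GC correction, 0.106 without the 2 hearts, and -0.269 to 0.0145 when each heart was left out. In WT TAC against WT sham it had 0.0177 with mitochondrially encoded genes removed and -0.174 to 0.11 over the hearts, and for the interaction 0.0695, 0.138 and -0.238 to 0.0462 in the same order of settings as the first. In SIRT5OE TAC against SIRT5OE sham, Ndufa4 had 0.0427 with quantile normalization, 0.00387 with mitochondrially encoded genes removed, 0.000254 with the replicate block and -0.0701 to 0.0466 over the hearts, and Ndufa4l2 had 0.0116 without the 2 hearts and -0.193 to 0.0116 over the hearts. The median log2 fold change of the members kept its sign in every comparison and setting run.

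Same-numbered hearts of different groups did not deviate together: 0 of 21 pairs had a correlation over 0.1 (-0.298 to 0.0779). The main fit therefore did not pair hearts by number. These correlations cannot exclude a shared litter or day, as no hearts known to be paired were there to compare. With the replicate block, 33 genes were lower in WT TAC than in WT sham.

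Limits are the 3 or 4 hearts per group, the wider spread of the TAC hearts that limma pools with the sham hearts, the mixture of cell types in a whole heart, and transcripts shared with pseudogenes and neighbouring genes. The values are RNA levels and say nothing of protein or enzyme activity.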
